A study of Mus musculus with 24 samples.

Results

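Wild-type naive CD4 T cells stimulated through CD3 and CD28 for 24 h were compared with unstimulated cells of the same genotype. The samples were chosen by their titles, 4 wild-type samples at 24 h and 4 wild-type unstimulated samples, which are 8 of the 24 arrays of the series. The other arrays hold wild-type cells at 8 h, 4 samples that serve below as a point in between, and cells of CD4(cre)Raptor(fl/fl) mice at all 3 times, which enter only the shared estimate of the spread. All cells came from mouse spleen and peripheral lymph nodes and were sorted as naive helper T cells by surface markers, among them CD4, low CD44 and absence of CD25, and the wild-type label gives the strain C57BL/6. Unstimulated cells were used directly after the sort, whereas the others were cultured with plate-bound anti-CD3 and anti-CD28. Stimulation and time in culture therefore cannot be told apart here. NuGEN kits amplified and labelled 20 ng of RNA per sample for hybridisation to Affymetrix HT MG-430 PM arrays. With a fixed RNA input, a change in the total RNA of a cell does not show, and in a bulk sample fewer cells of a type and less RNA per cell cannot be told apart. The labels do not tie each replicate to an animal of its own, so p-values measure only how far these samples spread, which may be technical.

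A naive T cell circulates between blood and lymphoid organs in a quiescent state. Transcription factors such as Klf2 and Foxo1 keep up the receptors for homing, exit and survival, and a set of inhibitors holds back the cell cycle, translation and growth. When the antigen receptor and the costimulator CD28 are engaged together, immediate early transcription factors appear, then interleukin 2 and its receptor. Growth, with ribosome production and biosynthetic metabolism, follows, and after it DNA replication and division. The comparison asks how far this programme had run after 24 h, and which transcripts of the naive cell were lost by then.

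Values are log2 RMA intensities, 1 probe set per gene, so a difference of 1 is a 2-fold change in intensity. A gene is called when its Benjamini-Hochberg adjusted p in the limma fit over 17097 genes is under 0.05, two-sided. The median of all values was 5.51, and group means under it lie near background, where a fold is that of the measured intensity only. Levels of different probe sets are not compared with each other.

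Within each of the 2 groups, arrays correlated with Pearson's r of at least 0.9933. In the 4 unstimulated samples 9 to 12 genes lay at least 2-fold from the mean of the other 3, and at 24 h that number was 6, 6 and 16 for replicates 2, 3 and 4 but 31 for replicate 1, with 28 of the 31 higher. Liver transcripts are among them: Alb, the gene of serum albumin, measured 9.02 in 24 h replicate 1 and 6.38 to 6.42 in the other 24 h samples. The summed linear intensity of 17 measured hepatocyte markers was 1740 in that sample, 362 to 373 in the other 24 h samples and 361 to 406 in the unstimulated ones. Without 24 h replicate 1, 4243 genes were called higher and 3957 lower. Of the called members of the naive list described below, Nsg2 and Tob2 were then no longer called. The unstimulated Raptor-deficient arrays, which enter the shared spread, were less alike, with a lowest r of 0.9777. In their replicate 1, 377 genes lay at least 2-fold from the mean of the other 3. A fit of only the groups compared called 4515 genes higher and 4316 lower.

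Of the 17097 genes, 4348 were called higher at 24 h (25.4%) and 4148 lower (24.3%), so close to an equal number moved each way. With dim genes removed the numbers were 3904 and 3084, and with each array centred on its median 4169 and 4633, so which direction holds more genes depends on these choices. The changes upward were larger. At least 2-fold rises were measured for 1913 genes (11.2%) and falls of that size for 884 (5.17%). At least 4-fold rises numbered 510 (2.98%) and falls 116 (0.678%), and beyond 8-fold there were 151 rises and 15 falls. Of those 151 rises, 94 started from an unstimulated mean under the median. All 4 samples at 24 h lay above all 4 unstimulated samples for 4275 genes (25%) and below them for 3946 (23.1%). The median difference over all genes was -0.03. The shares of 25.4% called higher and 24.3% called lower are the background for all counts of called list members below.

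Of the markers used in the sort, 3 are described here. Cd4, the coreceptor, measured 11.13, 11.21, 11.32 and 11.22 in unstimulated cells and 10.90, 10.85, 10.92 and 10.84 at 24 h, a fall by 0.34. Cd44, an adhesion receptor that is low on naive cells, measured 5.25, 5.50, 4.94 and 5.42 before and 7.76, 7.64, 8.11 and 7.69 after, a 5.73-fold rise. Il2ra encodes CD25, the high-affinity chain of the interleukin 2 receptor. It measured 4.41, 4.80, 3.20 and 3.47 in unstimulated cells, all under the median, and 10.39, 10.44, 10.42 and 10.26 at 24 h. The groups do not overlap for any of these 3 genes. That also held for the 25% of all genes that lay wholly above at 24 h and the 23.1% wholly below. The 84.7-fold rise of Il2ra was exceeded only by Il2 among the largest rises.

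The naive and quiescence list held 79 measured genes, and most of it was lower after 24 h. There were 59 members called lower, 10 called higher and 10 not called, against 24.3% and 25.4% of all genes called lower and higher. Members of this and the other lists were chosen with earlier results of these data known. The counts therefore describe the lists and do not test them. The median member differed by -1.23, and the median gene by -0.03. At least 2-fold falls were measured for 45 members and at least 4-fold falls for 21, where such falls made up 5.17% and 0.678% of all genes. All 4 samples at 24 h lay below all 4 unstimulated ones for 63 members (23.1% of all genes). Yet few of these transcripts vanished: 56 of the 59 lower members still had a 24 h mean at or above the median. The 3 others were Pde2a, Acss1 and Il10ra, which were chosen for naming after their values were seen.

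**Figure D1:**
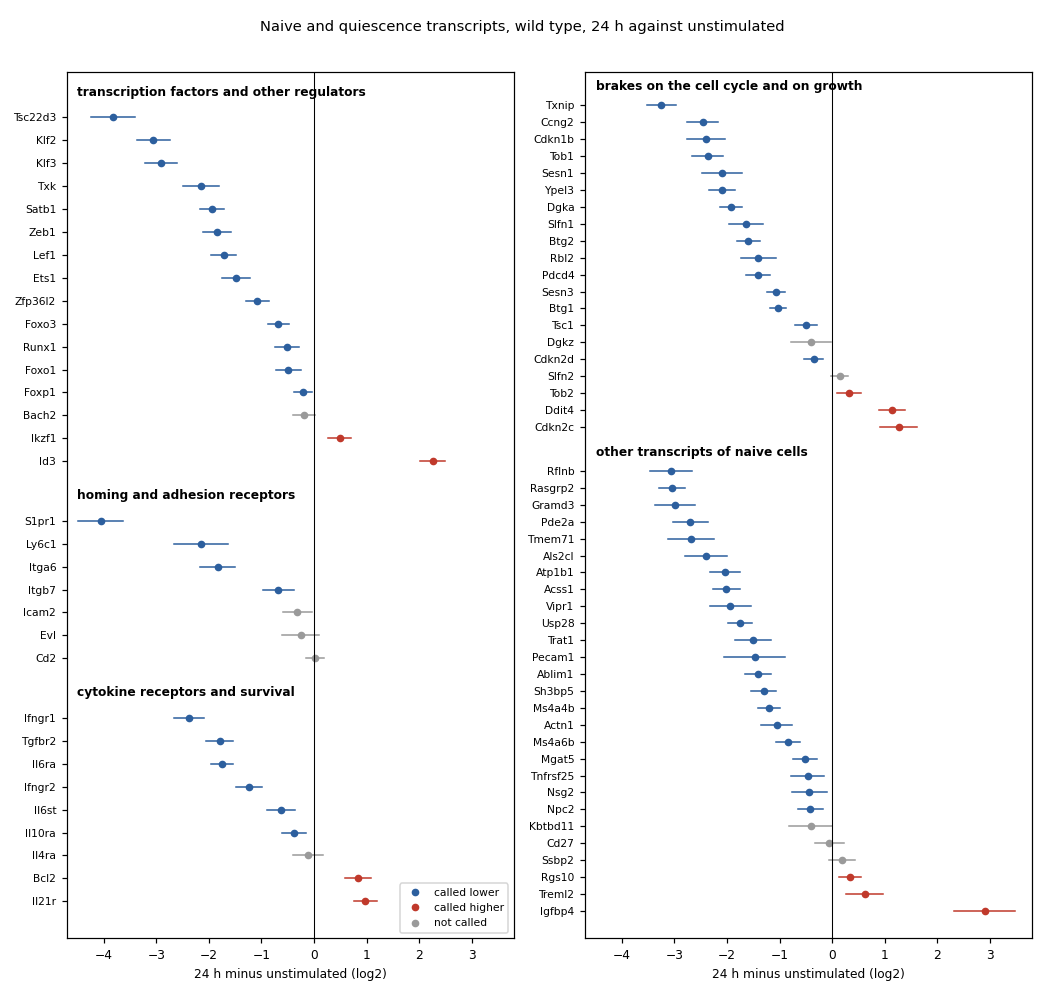
The x axis gives the log2 difference between 24 h and unstimulated wild-type cells for the 79 measured members of the naive and quiescence list, grouped by role, with points for the estimate and lines for its 95% interval (4 samples in each group). Most points lie left of 0, from -4.06 for S1pr1, and Igfbp4 (2.90) and Id3 (2.26) lie farthest right.

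S1pr1 had the largest fall of any gene named here. It encodes the sphingosine 1-phosphate receptor with which T cells leave lymphoid organs. Its 4 unstimulated values were 10.64, 10.65, 10.52 and 10.82, and at 24 h they were 6.79, 6.54, 6.30 and 6.76. The fall by 4.06 (standard error 0.21, limma adjusted p = 4.3e-15) is 16.7-fold, and each 24 h sample lay over 3 log2 units below every unstimulated one. At 8 h the level was 8.83, 8.21, 7.26 and 8.03, so the loss was well under way and not complete. Itga6, an integrin chain, fell 3.57-fold from 9.42 ± 0.03 to 7.58 ± 0.10 (SD, n = 4). Ly6c1, a surface antigen, fell 4.44-fold, with 24 h values spread from 7.13 to 8.09. Icam2, Evl and Cd2, which serve adhesion and the cytoskeleton, were not called, with differences of -0.32, -0.26 and 0.02. Icam2 was called without unstimulated replicate 3. Of the 7 homing and adhesion genes 4 were lower and 0 higher, with a median of -0.68.

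The group of transcription factors, which also holds the kinase Txk and the RNA-binding protein Zfp36l2, had 16 members, 13 lower and 2 higher, with a median of -1.28. Klf2, the factor that drives S1pr1 in T cells, measured 10.41, 10.55, 10.36 and 10.46 in unstimulated cells and 7.49, 7.39, 7.32 and 7.36 at 24 h, an 8.32-fold fall with no overlap. Its relative Klf3 fell 7.51-fold from 11.72 ± 0.05 to 8.81 ± 0.10 (SD, n = 4). Tsc22d3 encodes GILZ, a glucocorticoid-induced inhibitor of inflammatory factors. It went from 9.41, 9.38, 9.37 and 9.46 to 5.48, 5.71, 5.42 and 5.70, a 14.2-fold fall to a mean of 5.58, just above the median. Satb1, a chromatin organiser of T cells, fell 3.84-fold, Zeb1, a repressor, 3.59-fold, Lef1, a partner of beta-catenin, 3.29-fold and Ets1 2.80-fold. The forkhead factors moved less. Foxo1 fell 1.40-fold, Foxo3 1.60-fold and Foxp1 1.16-fold, and the adjusted p of Foxp1 was 0.034, with probe sets of the gene called in opposite directions. Foxp1 lost its call in 5 of the 8 fits that each left out 1 sample of either group, those without unstimulated replicates 1, 3 or 4 or 24 h replicates 3 or 4.

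Not every factor tied to the naive state went down. Bach2, a repressor of effector programmes, measured 10.15, 10.01, 10.16 and 10.10 unstimulated and 9.94, 9.98, 9.80 and 9.96 at 24 h, a difference of -0.19 with an adjusted p of 0.14. All 4 later values lie below the earlier ones, but by less than the fit's error allows to call. That error draws on all 24 arrays, while the SD of Bach2 was 0.07 in unstimulated cells and 0.08 at 24 h. Ikzf1, a lymphoid zinc-finger factor, rose 1.41-fold. Id3, an inhibitor of E proteins, rose 4.78-fold from 6.29 ± 0.17 to 8.54 ± 0.09 (SD, n = 4).

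Among the 9 cytokine receptors and survival genes 6 were lower and 2 higher, with a median of -0.62. Ifngr1, the ligand-binding chain of the interferon gamma receptor, fell 5.18-fold, from 9.14, 9.32, 9.13 and 9.22 to 6.70, 6.86, 6.89 and 6.88. Its partner chain Ifngr2 fell 2.34-fold. Tgfbr2, the receptor for the growth inhibitor TGF-beta, fell 3.47-fold, Il6ra, the interleukin 6 receptor, 3.35-fold and its signalling partner Il6st 1.54-fold. Il21r, a receptor of the same cytokine family as that of interleukin 2, rose 1.97-fold, and Bcl2, the survival factor, rose from 8.76 ± 0.10 to 9.60 ± 0.04 (SD, n = 4), 1.79-fold. Il4ra was not called at -0.12. Il7r was not analysed here.

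The brakes on the cell cycle and on growth made up 20 members, of which 15 were lower and 3 higher, with a median of -1.40. Txnip, an inhibitor of glucose uptake and thioredoxin, had 11.68, 11.82, 11.79 and 11.80 unstimulated and 8.58, 8.52, 8.42 and 8.56 at 24 h, a 9.52-fold fall. Cdkn1b encodes p27, which blocks cyclin-dependent kinases, and fell 5.29-fold from 11.20 ± 0.12 to 8.80 ± 0.09 (SD, n = 4). Ccng2, an atypical cyclin linked to arrest, fell 5.51-fold and Tob1, an antiproliferative adaptor, 5.15-fold, with 24 h values of 5.43, 5.31, 5.61 and 5.95. Btg2 and Btg1, of the same protein family as Tob1, fell 3.02-fold and 2.03-fold. Sesn1, an inhibitor of mTORC1, fell 4.28-fold, Dgka, which removes the second messenger diacylglycerol, 3.78-fold and Pdcd4, an inhibitor of translation, 2.65-fold.

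Some brakes went the other way. Cdkn2c, which encodes the kinase inhibitor p18, rose 2.41-fold from 5.09 ± 0.20, a level near background, to 6.36 ± 0.30 (SD, n = 4). Ddit4, another inhibitor of mTORC1, rose 2.20-fold from 7.53, 7.28, 7.60 and 7.49 to 8.57, 8.67, 8.64 and 8.58. Tob2 rose 1.25-fold, and Slfn2, a factor of T cell quiescence, was not called at 0.14, while its relative Slfn1 fell 3.11-fold. Tob2 was not called without 24 h replicate 1, without unstimulated replicate 3 or with cyclic loess scaling.

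The 27 other transcripts of naive cells held 21 lower and 3 higher members, with a median of -1.30. Rflnb (8.36-fold), Rasgrp2, an exchange factor for Rap1 (8.27-fold), Gramd3 (7.93-fold), Pde2a, a cyclic nucleotide phosphodiesterase (6.48-fold), and Tmem71 (6.40-fold) fell most. Igfbp4, a binding protein of insulin-like growth factors that is known as a naive T cell transcript, opposed the list. It measured 6.45, 5.49, 6.42 and 5.90 unstimulated and 6.38, 5.98, 6.27 and 5.63 at 8 h. At 24 h it measured 9.04, 9.06, 8.95 and 8.82, a 7.49-fold rise that appeared after 8 h. Cd27, a costimulator, was not called (10.08 ± 0.33 and 10.03 ± 0.24, SD, n = 4) and lower at 24 h than at 8 h, when it measured 11.12.

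The 116 genes that fell at least 4-fold all had an unstimulated mean at or above the median, and 21 of them belong to the naive list. At 24 h 28 of the 116 had a mean under the median and 88 did not. Cd55, which protects cells from complement, fell 11.4-fold from 9.30, 9.38, 9.36 and 9.86 to 5.90, 5.86, 6.04 and 6.07. Cd55b, a near-identical neighbour whose probes may share signal with it, fell 9.55-fold. Vps37b, a subunit of the ESCRT-I sorting complex, fell 11.2-fold, Carns1, the synthase of carnosine, 10.4-fold, Mex3b, an RNA-binding protein, 9.18-fold, and Pex11g, a peroxisomal membrane protein, 8.99-fold. Rhob, a small GTPase, fell 8.50-fold, and Slc28a2, a nucleoside transporter, 8.19-fold from 11.10 ± 0.10 to 8.06 ± 0.19 (SD, n = 4). Klrd1, which encodes CD94, a receptor better known from natural killer cells, fell 11.1-fold from 7.31, 7.25, 6.79 and 7.24 to 3.79, 3.39, 3.82 and 3.71. Of 9 natural killer cell markers, 7 stayed under the median in all 8 samples, and the summed level of the list went from 648 to 691 before to 393 to 414 after. Most of this sum came from Klrd1 itself and from Prf1, the gene of perforin, whose mean went from 8.73 to 8.13. Of the 9 markers 3 were called lower and 1 higher, against 24.3% and 25.4% of all genes. Whether a few natural killer cells in the unstimulated samples have a part in the fall of Klrd1 was not tested.

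The 8 h samples place these losses in time. Against 8 h, 2967 genes were called higher at 24 h (17.4%) and 1878 lower (11%). With each array centred on its median these numbers were 2452 and 3028, so the balance of rises and falls after 8 h depends on the scaling. The 2 comparisons share the 24 h samples, so their calls are given side by side only. Of the 59 naive members lower than in unstimulated cells, 26 were lower at 24 h than at 8 h, 7 were higher and 26 were not called. Among the 45 naive members with falls of at least 2-fold, 23 were lower than at 8 h and 2 higher. For all 884 genes with such falls the numbers were 458 and 28, so the naive members did not stand out in this. For the 116 genes with at least 4-fold falls, 82 were lower than at 8 h, 0 were higher by limma and 34 were not called. For the 45 naive members with falls of at least 2-fold, the median share of the 24 h difference already there at 8 h was 78.4%, with a range from 44.5% to 146.8%.

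Satb1 was the slowest of these 45, at 44.5%: it measured 10.20, 10.22, 9.96 and 9.76 at 8 h and 8.93, 8.92, 8.91 and 9.07 at 24 h, from 10.90 ± 0.05 unstimulated (SD, n = 4). Klf2 had covered 51.2% and Tsc22d3 58.8% of their falls by 8 h. Ets1 (96.7%), Pdcd4 (98.3%) and Sesn1 (100.5%) were at or near their 24 h level by then. A few transcripts had begun to return. Itgb7, the beta chain of a gut-homing integrin, went from 9.36 ± 0.11 to 7.87 at 8 h and back to 8.68 ± 0.07 at 24 h (SD, n = 4), still below the start. Rbl2, a pocket protein that represses cell cycle genes, went from 8.75 to 6.85 and then 7.35, and Nsg2 from 7.94 to 6.67 and 7.51.

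The 8 h samples were less alike than the 24 h samples for these genes. Replicate 1 at 8 h held the highest of the 4 values for 50 of the 59 lower naive members and for 109 of the 116 genes with at least 4-fold falls. Klf2, for example, measured 9.52, 8.96, 8.51 and 8.54 at 8 h. Without that sample 71 of the 116 were called lower at 24 h than at 8 h and 0 higher by limma, and of the 59 naive members 23 were lower and 9 higher. The median share reached by 8 h was then 85.2%.

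**Figure D2:**
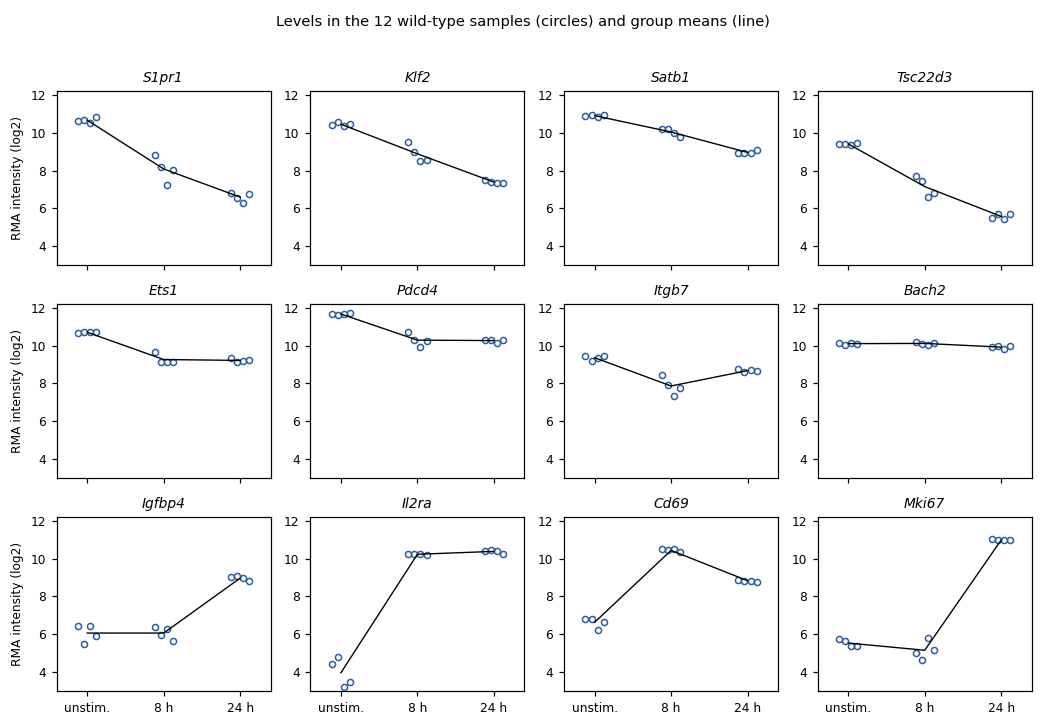
Each panel gives the log2 RMA intensity of a gene in the 12 wild-type samples (circles, 4 at each of unstimulated, 8 h and 24 h), with the line through the group means. S1pr1, Klf2, Satb1 and Tsc22d3 fall over both intervals, Ets1 and Pdcd4 end their fall by 8 h, Itgb7 partly returns, Bach2 stays level, Cd69 peaks at 8 h, and Igfbp4 and Mki67 rise after 8 h.

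The Gimap genes encode GTPases that support survival of lymphocytes, and 7 of 8 were lower and 0 higher, with a median of -1.38. Gimap5 went from 8.25, 8.35, 8.23 and 8.17 to 6.65, 6.73, 6.70 and 6.88, a 2.85-fold fall, of which 35.1% was there at 8 h. Gimap4 fell 2.84-fold, Gimap6 2.80-fold and Gimap8 2.72-fold, and the 24 h means of all 3 were 9.73 or more. Gimap7 was not called at 0.13.

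Genes of the antigen receptor and its proximal signalling did not move in 1 direction. Of 28 measured members 7 were higher, 9 lower and 12 not called, near the background shares, with a median of 0.03. Ptpn6, which encodes the phosphatase SHP-1, rose 8.08-fold from 6.33 ± 0.18 to 9.35 ± 0.07 (SD, n = 4). Sla, an adaptor that lowers receptor levels, rose 6.80-fold, Zap70, the receptor's kinase, 3.91-fold and Cd5, an inhibitory coreceptor, 3.37-fold. The CD3 chains Cd3d, Cd3e and Cd3g were not called, at differences of 0.25, 0.14 and 0.26. For Cd3d and Cd3g all 4 values at 24 h still lay above all 4 unstimulated ones, as for 25% of all genes. Cd247, the zeta chain, fell by 1.10.

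Surface receptors of activation rose together: 26 of 32 were higher and 1 lower, Il18r1, against 25.4% and 24.3% of all genes, and the median was 2.03. After Il2ra the largest rises were those of Tnfsf11 (39.9-fold), which encodes the ligand RANKL, Cd200 (29.3-fold), an inhibitory ligand, and Tfrc (15.6-fold), the transferrin receptor for iron uptake. Tfrc measured 6.18, 6.61, 6.57 and 6.46 before and 10.29, 10.47, 10.52 and 10.43 after, with no overlap. Cd69, an early marker, was 4.58-fold above unstimulated cells at 8.83 ± 0.03 (SD, n = 4) but had been at 10.43 at 8 h. Ctla4, the inhibitory receptor, measured 6.56, 6.74, 6.68 and 6.47 unstimulated, 6.82 on average at 8 h and 9.34, 9.37, 9.45 and 9.36 at 24 h, a 6.81-fold rise that came after 8 h.

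Of 34 cytokine and chemokine genes 14 were higher and 4 lower, against 25.4% and 24.3% of all genes. Both group means were under the median for 18 of them. Il2, the growth factor of T cells, measured 3.97, 4.43, 4.82 and 4.51 unstimulated and 10.84, 10.84, 11.06 and 10.82 at 24 h, the largest rise at 88-fold, after 11.56 at 8 h. Ccl3 and Ccl4, chemokines for monocytes and other T cells, rose 52.6-fold and 11.8-fold, and Lif, a cytokine of the interleukin 6 family, 15.2-fold. Ifng reached 4.75 ± 0.77 and Il4 and Il17a stayed at 4.12 and 2.54, all under the median, so their levels lie near background.

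Among 38 immediate early and activation transcription factors 26 were higher and 4 lower, with a median of 0.67. Irf4, which scales with receptor signal strength, rose 28.2-fold from 6.19, 5.59, 5.66 and 5.17 to 10.46, 10.57, 10.54 and 10.30. Irf8 rose 17.0-fold, Egr2 12.7-fold, Egr1 11.8-fold and Nr4a1, an orphan nuclear receptor induced by the antigen receptor, 10.7-fold. Myc, the driver of growth and metabolism, went from 7.56 ± 0.04 to 11.21 ± 0.08 (SD, n = 4), 12.5-fold. Batf, an AP-1 partner of Irf4, rose 1.98-fold, with 7.54 at 8 h, no higher than the 7.66 of unstimulated cells. Mxd4, a repressor that competes with Myc for its partner, was among the 4 lower members and fell 5.40-fold.

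Of 17 factors of helper lineages 5 were higher and 5 lower, near the 25.4% and 24.3% of all genes. Tbx21, the master factor of type 1 helper cells, measured 3.42, 3.06, 3.03 and 3.15 unstimulated and 8.10, 8.61, 8.35 and 6.80 at 24 h, a 27.8-fold rise. Foxp3, the factor of regulatory T cells, rose 1.63-fold from 6.83 ± 0.37 to 7.53 ± 0.26 (SD, n = 4), and its groups overlap. Gata3, of type 2 cells, was not called at -0.05, and Bcl6, of follicular helper cells, was 1.31-fold lower at 24 h after 9.32 at 8 h. Bcl6 was not called without 24 h replicate 2 or without unstimulated replicates 1 or 3. Rora fell 3.50-fold and Stat4, which signals for interleukin 12, 1.73-fold; probe sets of Rora were called in opposite directions.

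Replicate 4 at 24 h was the lowest of its group for several genes linked to interferon gamma, a set chosen after the values were seen. Tbx21 was 6.80 against 8.10 to 8.61 in the other 3 samples, Irf8 8.94 against 9.66 to 9.88, Gbp2, an interferon-induced GTPase, 9.61 against 10.51 to 10.65, Gzmb, the protease granzyme B, 6.20 against 7.04 to 7.23 and Ifng 3.70 against 4.70 to 5.49. Replicate 4 at 8 h was also the lowest for Tbx21 (4.57), Irf8 (7.26) and Gbp2 (9.64). For Ifng it measured 3.59, next to 3.60 in replicate 1, both under the median. Gzmb was lowest in replicate 2 at 8 h, at 4.70, with 4.81 in replicate 4. The 24 h values of these 5 genes all lay above all unstimulated ones, replicate 4 included, as for 25% of all genes. Labels tie replicate 4 at 8 h and 24 h only by number, and the cause was not tested.

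Cell cycle genes rose late. In the DNA replication and S phase list 48 of 50 members were higher and 1 lower, with a median of 2.35, and in the mitosis list 54 of 58 were higher and 4 lower, also with a median of 2.35. Mki67, the proliferation antigen, measured 5.76, 5.63, 5.40 and 5.36 unstimulated and 5.15 on average at 8 h. At 24 h it measured 11.02, 10.96, 10.97 and 10.97, 43.5-fold above unstimulated cells. Mcm5, a subunit of the replicative helicase, went from 6.38, 6.46, 5.97 and 6.18 to 9.82, 9.94, 9.98 and 10.06, 13-fold. Tyms and Rrm2, which make deoxynucleotides, rose 21.6-fold and 17.8-fold, Cdc6, a loader of the helicase, 17.6-fold, Birc5, the survivin subunit of the chromosomal passenger complex, 23.2-fold, and Ube2c, an enzyme of mitotic protein degradation, 22.2-fold. The 4 mitosis members that were lower were Cdc25b, Cenpa, Pttg1 and Smc4, and the lower replication member was Orc1, whose probe sets were called in opposite directions and which was higher by 0.51 when all its probe sets were averaged. These 5 were named after their values were seen.

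Promoters of these genes often held the same short sequences. RefSeq promoters on GRCm38.p6, 250 bases before to 50 after the start, were searched on both strands for CCAAT, the site of the factor NF-Y, for TTTGAA, the core of the cell cycle homology region, and for the E2F forms TTTCCCGC, TTTGGCGC, TTTCGCGC and TTTGCCGC. Of 53 promoters of 48 mitosis genes, 34 held both CCAAT and TTTGAA (64.2%), against 6.95% of all 32851 promoters. Of 52 promoters of 42 replication genes, 19 held an E2F form (36.5%), against 2.26% of all. E2F forms overlap each other in some promoters, and a match is a description of the letters, not of binding. In 102 promoters of 66 naive list genes these shares were 2.94% and 0%. The 250 bases before the start of 4 mitosis genes follow, because they carry both motifs and the genes rose after 8 h. Cdk1, the kinase that drives mitosis, went from 5.03 on average unstimulated and at 8 h to 8.77 at 24 h, and Cdc20, an activator of the anaphase-promoting complex, from 5.22 and 5.43 to 6.99. The letters stand with CCAAT and TTTGAA, on either strand, in capitals.
Mki67 (chr7:135716380-135716629, minus strand): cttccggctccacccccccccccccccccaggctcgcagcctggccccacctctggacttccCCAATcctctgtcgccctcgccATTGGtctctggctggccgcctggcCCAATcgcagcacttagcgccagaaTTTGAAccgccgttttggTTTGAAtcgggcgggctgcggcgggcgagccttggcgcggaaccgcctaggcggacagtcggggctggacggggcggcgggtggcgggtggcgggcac
Ube2c (chr2:164769679-164769928, plus strand): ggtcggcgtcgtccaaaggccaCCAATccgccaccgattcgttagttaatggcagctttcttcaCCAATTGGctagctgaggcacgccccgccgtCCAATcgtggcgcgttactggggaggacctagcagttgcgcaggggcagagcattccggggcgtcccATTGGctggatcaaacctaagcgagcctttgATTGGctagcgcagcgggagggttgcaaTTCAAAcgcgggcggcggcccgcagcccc
Cdk1 (chr10:69352913-69353162, minus strand): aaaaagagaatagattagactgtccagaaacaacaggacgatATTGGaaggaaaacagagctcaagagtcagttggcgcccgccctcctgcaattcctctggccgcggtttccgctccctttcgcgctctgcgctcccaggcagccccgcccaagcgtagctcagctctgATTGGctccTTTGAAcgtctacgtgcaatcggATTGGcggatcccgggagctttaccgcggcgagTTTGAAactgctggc
Cdc20 (chr4:118437344-118437593, minus strand): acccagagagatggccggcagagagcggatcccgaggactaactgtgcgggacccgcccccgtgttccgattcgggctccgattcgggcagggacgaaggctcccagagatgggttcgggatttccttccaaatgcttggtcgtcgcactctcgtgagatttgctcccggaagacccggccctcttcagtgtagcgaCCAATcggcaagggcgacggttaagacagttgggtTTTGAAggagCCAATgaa

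The same stretch follows for 3 replication genes with E2F forms, on either strand, in capitals. Mcm5 and Mcm6 encode subunits of the same helicase, and in each of them matches on opposite strands overlap.
Cdc6 (chr11:98907901-98908150, plus strand): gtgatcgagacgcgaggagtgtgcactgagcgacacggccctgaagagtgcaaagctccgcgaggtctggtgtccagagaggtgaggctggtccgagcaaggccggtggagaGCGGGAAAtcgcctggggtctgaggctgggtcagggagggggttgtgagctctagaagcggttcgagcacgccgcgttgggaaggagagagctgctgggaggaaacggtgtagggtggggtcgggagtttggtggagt
Mcm5 (chr8:75109259-75109508, plus strand): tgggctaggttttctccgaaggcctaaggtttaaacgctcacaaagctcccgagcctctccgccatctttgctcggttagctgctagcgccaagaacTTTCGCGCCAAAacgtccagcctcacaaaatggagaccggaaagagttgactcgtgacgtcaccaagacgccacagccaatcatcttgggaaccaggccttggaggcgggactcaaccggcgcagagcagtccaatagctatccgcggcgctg
Mcm6 (chr1:128359706-128359955, minus strand): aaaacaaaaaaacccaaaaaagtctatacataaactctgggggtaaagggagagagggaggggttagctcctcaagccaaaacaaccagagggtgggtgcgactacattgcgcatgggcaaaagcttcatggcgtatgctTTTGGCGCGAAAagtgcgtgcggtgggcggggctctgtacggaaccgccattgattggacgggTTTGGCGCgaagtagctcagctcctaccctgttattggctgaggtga

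In the naive list the motif TGTTTAC, a core recognised by forkhead factors, was in 5 of 102 promoters (4.9%), against 3.65% of all, and CACGTG, the E-box of Myc and its relatives, in 5 (4.9%) against 7.15%. CACGTG was in 8 of 45 ribosome biogenesis promoters (17.8%). The promoter of Txnip is shown with its TGTTTAC match, on the opposite strand, in capitals, since it is the member with the largest fall among the brakes.
Txnip (chr3:96557707-96557956, plus strand): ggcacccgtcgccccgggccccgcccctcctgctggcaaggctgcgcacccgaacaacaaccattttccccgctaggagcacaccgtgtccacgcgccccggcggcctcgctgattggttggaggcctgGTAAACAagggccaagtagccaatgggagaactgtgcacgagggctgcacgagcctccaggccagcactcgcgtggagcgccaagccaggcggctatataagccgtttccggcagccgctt

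Genes of the G1 phase were mixed, with 10 of 18 higher and 4 lower, against 25.4% and 24.3% of all genes. Cdk6 rose 7.90-fold and Cdk4 6.58-fold, the kinases that open the cycle, while their inhibitor Cdkn1b fell as given above. Cdk4 measured 7.27, 7.65, 7.14 and 7.02 unstimulated, 9.72 on average at 8 h and 9.97, 9.90, 10.09 and 10.00 at 24 h, so the G1 kinase was near its 24 h level at 8 h, before Mki67 had moved.

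Growth genes had also reached their level early. In the ribosome biogenesis list 39 of 41 members were higher and 0 lower, with a median of 1.97. Nolc1, a nucleolar chaperone, measured 7.30, 6.95, 6.89 and 6.95 unstimulated, 10.45 on average at 8 h and 10.29, 10.34, 10.41 and 10.44 at 24 h, a 10.2-fold rise. Nhp2, a core protein of small nucleolar particles, rose 10.2-fold, Mrto4 9.60-fold and Nop16 9.18-fold, both assembly factors of the large subunit. The genes of cytosolic ribosomal proteins stood apart from their assembly factors. Of 30 genes, 8 were higher, near the 25.4% of all genes, 2 lower (24.3% of all genes) and 20 not called. Their median was 0.03. Rpl14 was an exception at 5.18-fold, and the next were Rps2 at 1.40-fold and Rpl11 at 1.33-fold. Rps2 and Rpl11 had unstimulated means of 12.32 and 12.48, where the largest value on any array was 13.79, and Rpl14 had one of 6.61. Whether rises are compressed at such high levels was not tested. With cyclic loess scaling 3 of the 30 were higher and 15 lower, so their direction rests on the scaling.

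All 17 tRNA synthetases and all 36 proteasome genes were called higher, with medians of 1.65 and 1.20. Kars, which charges tRNA with lysine, rose 5.67-fold and Psmd14, the deubiquitinase of the proteasome lid, 3.66-fold. Of 33 chaperone genes 25 were higher and 4 lower, led by Sdf2l1 (9.97-fold) of the endoplasmic reticulum and Hspe1 (5.47-fold), the mitochondrial cochaperonin.

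Most genes of central carbon metabolism were higher. Of 18 glycolysis genes 16 were higher and 0 lower, with a median of 1.63. Tpi1, triose phosphate isomerase, measured 5.65, 5.71, 5.55 and 5.50 unstimulated, 6.90 on average at 8 h and 9.78, 10.02, 10.13 and 10.06 at 24 h, a 21.0-fold rise. Hk2, the inducible hexokinase, rose 8.10-fold, Slc2a1, the glucose carrier, 4.47-fold and Ldha, which makes lactate, 3.88-fold. Oxidative phosphorylation had 55 of 57 members higher and 1 lower, with a median of 1.08. Atp5g1, an ATP synthase subunit with probe sets called in opposite directions, rose 5.02-fold, and Ndufs8, of complex I, 4.67-fold. Of 18 genes of the tricarboxylic acid cycle 16 were higher and 2 lower. Probe sets of Dlst, Idh2 and Ogdh, enzymes of this cycle, were called in opposite directions.

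Building-block pathways rose as well. One-carbon and nucleotide synthesis had 20 of 23 genes higher and 0 lower, with a median of 2.02, led by Nme1 (14.2-fold), a nucleoside diphosphate kinase, and Psat1 (14.2-fold), of serine synthesis. Psat1 went from 6.95, 6.54, 6.85 and 6.58 to 10.53, 10.52, 10.56 and 10.62. Of 19 sterol genes 17 were higher and 0 lower, with Idi1 (19.2-fold) and Sqle (10.8-fold) ahead, and of 13 fatty acid genes 11 were higher and 1 lower. Scd1, a desaturase, was at 3.22 at 8 h and reached 6.08 ± 0.12 at 24 h (SD, n = 4). Of 13 nutrient transporters 10 were higher and 2 lower, against 25.4% and 24.3% of all genes. Slc7a5, which carries large neutral amino acids, rose 5.51-fold, and Slc43a3, a purine base carrier, 5.47-fold. Bcat1, which starts the breakdown of branched-chain amino acids, rose 51.7-fold and Fabp5, a fatty acid carrier, 33.5-fold.

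**Figure D3:**
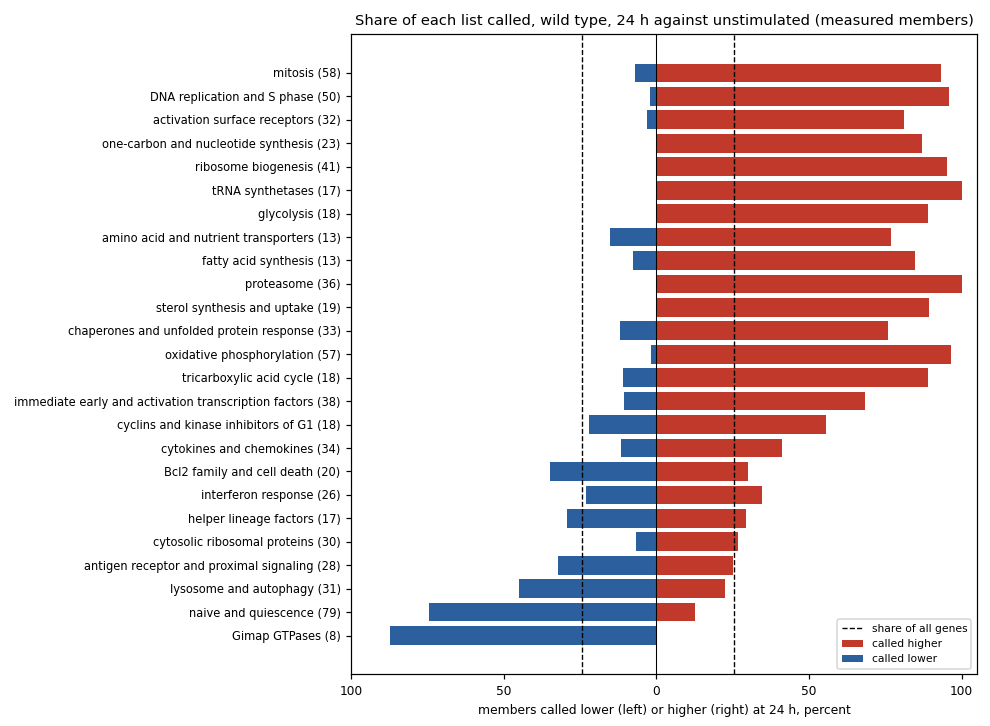
Bars give the percent of measured members of each list called lower (left) or higher (right) at 24 h against unstimulated wild-type cells, with the number of members in brackets and lists ordered by median difference. Dashed lines mark the shares of all 17097 genes, 24.3% lower and 25.4% higher, and the naive and Gimap lists are the ones that extend far to the left.

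The 8 h samples sort these lists by time. For members that rose at least 2-fold, the median share of the 24 h difference already there at 8 h was 105.3% in ribosome biogenesis (34 genes), 88% in the proteasome (26), 83.1% in one-carbon and nucleotide synthesis (19), 66.4% in oxidative phosphorylation (40) and 61.5% in glycolysis (13). It was 4% in DNA replication (46) and -3.8% in mitosis (49), where all 46 and all 49 genes were called higher at 24 h than at 8 h. For all 1913 genes with rises of that size it was 69.8%, and for the 884 falls 73.8%. Of these 1913 genes, 1162 were called higher at 24 h than at 8 h, 98 lower and 653 not called. For 16 activation transcription factors the median was 121.9%, with a range from 58.6% to 232.4%: 10 were called lower at 24 h than at 8 h, 3 higher and 3 not called.

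**Figure D4:**
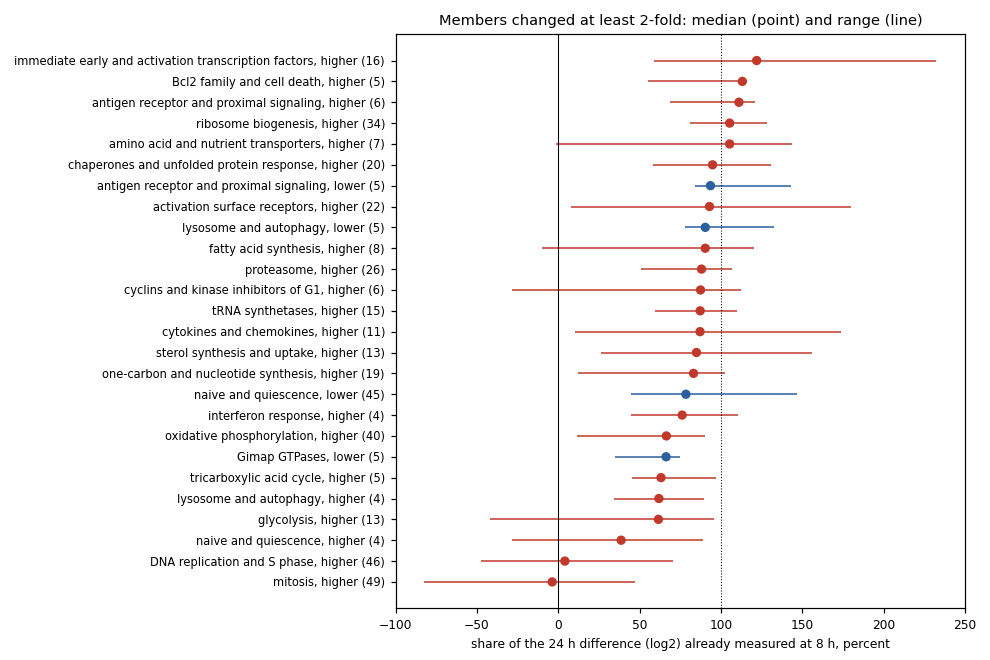
The x axis gives the share of the log2 difference at 24 h that was already measured at 8 h, in percent, for list members called with at least a 2-fold change, with points for the median, lines for the range, red for rises and blue for falls, and the number of genes in brackets. Mitosis and DNA replication lie near 0, glycolysis and oxidative phosphorylation near 60 to 70, and the medians of ribosome biogenesis and activation transcription factors above 100.

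Of 31 lysosome and autophagy genes 14 were lower and 7 higher, against 24.3% and 25.4% of all genes, with a median of -0.15. Ulk1, the kinase that starts autophagy, fell 3.08-fold from 8.21, 8.07, 8.24 and 8.31 to 6.57, 6.33, 6.61 and 6.82, and Atp6v1a, a proton pump subunit, rose 2.75-fold. Of 26 interferon response genes 9 were higher and 6 lower, near the shares of all genes (25.4% and 24.3%), with a median of 0.07. Gbp2 rose 17.9-fold and Ddx58, an RNA sensor, fell 2.95-fold. In the Bcl2 family and cell death list 6 of 20 were higher and 7 lower, against the same background, with a median of 0.08. Bcl2a1a, a survival factor with close paralogs that its probes may share, rose 20.4-fold, and Bcl2l1, which encodes Bcl-xL, 3.01-fold, whereas Mcl1, another survival factor, fell by 0.79.

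Most markers of other cells lay under the median in all 8 samples. The exceptions were those of CD8 T cells (1 of 3 under it), hepatocytes (7 of 17) and regulatory T cells (2 of 8). Both group means were under the median for 14 of the 17 hepatocyte markers, several of which passed it only in 24 h replicate 1. Some markers of other cells were well above the median, such as Prf1, the pore-forming protein perforin, with means of 8.73 before and 8.13 after, and Cst3, a protease inhibitor, with 8.03 and 8.52. The 10 markers of alpha beta CD4 T cells summed to 10534 to 11137 unstimulated and 12547 to 13392 at 24 h. B cell markers summed to 492 to 629 and 477 to 600, with 9 of 14 under the median in all 8 samples, and myeloid markers to 642 to 708 and 687 to 753, with 11 of 16 under it. CD8 T cell markers summed to 160 to 216 and 192 to 245. Platelet markers went from 144 to 170 down to 104 to 113, and stromal or endothelial markers from 623 to 641 down to 325 to 354, of which Pecam1, also expressed by naive T cells and a member of the naive list, measured 8.73 on average before and 7.26 after. Regulatory T cell markers rose from 587 to 699 up to 3072 to 3221, most of it Il2ra and Ctla4. Of these 8 markers 6 were called higher, against 25.4% of all genes. What part other cells have in any result was not tested.

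**Figure D5:**
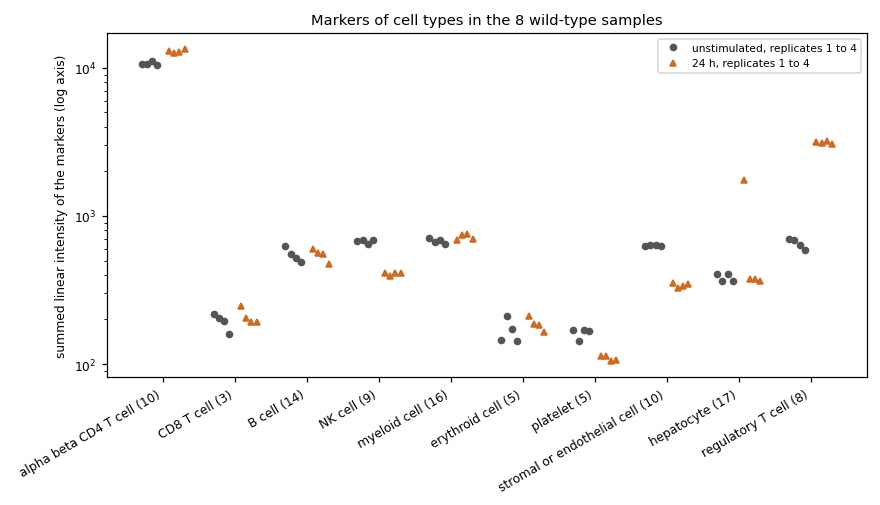
The y axis gives, on a log scale, the summed linear intensity of the measured markers of each cell type (number in brackets) in the 4 unstimulated samples (circles) and the 4 samples at 24 h (triangles) of wild-type cells. The hepatocyte sum of 1740 in 24 h replicate 1 stands above the 362 to 373 of the other 24 h samples.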

How the data were processed

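The deposited table holds log2 intensities that the authors computed with RMA in Partek 6.5, per the submitters' processing notes, for 45141 probe sets on 24 arrays. Probe sets were named through a platform gene table: 28898 had 1 symbol, 551 several and 15692 were not listed, and 28689 matched RefSeq genes of GRCm38.p6. For the 7180 of 17097 genes with several probe sets, the one of highest mean intensity across the 24 arrays stood for the gene. Of the 4122 called genes with several probe sets, 355 had probe sets called in opposite directions. The lists other than those of cell types held 21 such genes. Intensities were fitted as 6 group means with limma 3.58.1 in R 4.3.3 (18 residual degrees of freedom), with Benjamini-Hochberg adjustment. The number of arrays limits the precision. The code was tested on simulated data.

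Gene lists, members and naming rules were chosen with earlier results of these data known. Named were the 15 largest rises and falls, up to 4 called members of a list, any naive member and a fixed set. Outside these rules, and chosen after their values were seen, are Gimap7, the CD3 chains and Cd247, Il18r1, Il4, Il17a, Mxd4, Mcl1, Cdc25b, Cenpa, Pttg1, Smc4, Orc1, Mcm6, Cdk1, Cdc20, Dlst, Idh2, Ogdh, Prf1 and Cst3. Alternatives covered probe sets, dim genes, scaling, prior, weights, samples fitted, a replicate block and each sample left out.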

Additional observations from a re-analysis of the deposited data

Results flagged for a closer look

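Within groups of 4 samples, 26 of 344 groups of values examined had 1 sample far from the other 3 by Dixon's criterion, and chance gives about 1 in 20. Replicate 1 at 24 h stood apart for liver transcripts, with Alb at 9.02 against 6.38 to 6.42 and a summed hepatocyte level of 1740 against 362 to 373. The same sample was the odd one for Rhob (4.49), Hk2 (9.10), Ifngr1 (6.70) and Mki67 (11.02). Replicate 4 at 24 h was low for Gbp2, at 9.61 against 10.51 to 10.65, and for Lif, at 7.60 against 8.33 to 8.40, and high for Satb1 (9.07). At 24 h, replicate 3 stood apart for Il2 (11.06), Klf3 (8.67), Vps37b (6.86) and Bcl2l1 (8.35), and replicate 2 for Icam2 (7.58).

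Among unstimulated samples, replicate 1 stood apart for Fabp5, at 4.35 against 5.57 to 5.63, and for Bcat1 (3.62), Nolc1 (7.30), Orc1 (6.81) and Gramd3 (10.41). Replicate 3 did so for Klrd1 (6.79), Nop16 (5.61) and Slfn1 (10.45), and replicate 4 for Cd55, at 9.86 against 9.30 to 9.38, and for Atp5g1 (8.13) and Smc4 (11.97). The summed platelet level was 144 in replicate 2 against 167 to 170 in the others.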

How the results depend on the processing

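Genes called higher and lower numbered 4133 to 4243 and 3749 to 3957 when 1 sample of either group was left out. Whether replicate numbers pair the samples cannot be decided from the correlations of deviations from the group means, since these were small. Same-numbered unstimulated and 24 h samples correlated at 0.0616, -0.0102, 0.00435 and 0.0653. Replicates 1 and 4 alone correlated best with their own number. Between unstimulated and 8 h samples the correlations were 0.00217, 0.0994, 0.0641 and -0.0635, where replicates 2 and 3 correlated best with their own number. Between 8 h and 24 h the correlations were 0.079, 0.0154, 0.077 and 0.0388, where replicates 1, 3 and 4 correlated best with their own number, all under 0.1. A replicate block in the fit gave 4385 higher and 4156 lower. Against 8 h, median centring called 3028 genes lower. Members called lower with dim genes removed numbered 3 helper lineage factors, 5 cytosolic ribosomal proteins, 1 gene of the tricarboxylic acid cycle, 1 sterol gene, 3 B cell markers and 2 myeloid markers, and 1 myeloid and 0 hepatocyte markers were then higher. With the mean of all probe sets, 0 DNA replication genes, 1 ribosome biogenesis gene, 6 cytosolic ribosomal proteins and 2 B cell markers were lower, 13 cytosolic ribosomal proteins were higher, and Orc1 turned to 0.51. Cytosolic ribosomal proteins called lower numbered 5 with median centring, 15 with cyclic loess (3 higher), 7 with an intensity trend, 5 with array weights and 1 to 4 without single samples. Median centring gave 1 lower sterol gene and 3 lower B cell markers, and leaving out single samples 0 to 1 and 1 to 3. Array weights, a fit of only the compared groups, and both fits with the block each gave 2 lower B cell markers, and the compared groups alone 10 lower interferon genes and 0 higher hepatocyte markers. CD4 T cell markers called higher numbered 5 with weights, with only the compared groups and in the block fit of wild-type samples, and 3 to 5 without single samples. CD8 T cell markers called higher numbered 1 with either block and 0 to 1 without single samples, erythroid markers 2 with cyclic loess and 0 to 1, and hepatocyte markers 2 in the wild-type block fit and 0 to 1. The block fit of wild-type samples and the fit without 1 Raptor-deficient unstimulated sample were added after seeing the data. The cause of these shifts was not tested. Probe sets near background limit what can be said of dim genes.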
